A study of Mus musculus with 6 samples.

Results

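The activator protein 1 (AP-1) subunits and immediate early genes of this cell line form a list of 10 named genes among the 54532 genes listed in each library. Of them Fos, Fosb, Fosl1 and Fosl2 encode the FOS proteins, Jun, Junb and Jund encode the JUN proteins, Atf3 encodes a related leucine-zipper factor, and Egr1 and Ier2 are immediate early genes outside the AP-1 families. Members were taken by gene name, and all 10 were found once in every library. All 10 passed the filter on low counts that left 14129 genes for testing.

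YAMC cells, described in the labels as an epithelial line of the young adult mouse colon, carry a temperature-sensitive large T antigen of simian virus 40 with the tsA58 mutation under an interferon-gamma-inducible H-2Kb promoter, and both groups were grown with interferon-gamma. They are labelled wild type. Treated cells, in 3 libraries, were given the human milk sugar 2'-fucosyllactose (2'-FL) for 6 h at a dose of 20 µg/ml, and the 3 other libraries are untreated controls, for which the labels give no time. It is a single line, and since the labels do not tell whether replicates were grown separately, the p-values cover the spread of these libraries, which may be technical.

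The FOS and JUN proteins bind DNA as dimers joined through leucine zippers. FOS proteins need a JUN partner, while JUN proteins can also pair with each other. Transcription of Fos, Egr1 and Ier2 starts within minutes when growth factor receptors such as the EGF receptor, named in the series title, are activated, and the transcripts are then degraded quickly, so that an induced peak is usually over within hours. Fosl1, Fosl2 and Jund are known for slower or steadier expression.

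The promoters below show sequence elements near RefSeq starts of members, and elements farther upstream lie outside them. Promoters of 300 bases, from 250 before to 50 after the start, were taken from RefSeq on GRCm38.p6. They cover 7 of the 10 members, namely Atf3, Fos, Fosb, Fosl2, Jun, Junb and Jund. The promoter of Egr1 was left out of the search and is not reported here, and Fosl1 and Ier2 had no entry. Those printed are the 4 whose RefSeq start lies within 30 bases of the gene start in the deposited files. For Fosl2, Jund and Atf3 the RefSeq start lies 671, 1210 and 34706 bases from that gene start. Motif counts over the 7 members include these windows, which do not cover the gene start in the files. Capitals mark matches on either strand to the core TGACG of the cyclic AMP response element (CRE), to the longer element TGACNTCA, to the AP-1 site TGACTCA, or to the TATA box TATAAA.
Fos (chr12:85473640-85473939, plus strand): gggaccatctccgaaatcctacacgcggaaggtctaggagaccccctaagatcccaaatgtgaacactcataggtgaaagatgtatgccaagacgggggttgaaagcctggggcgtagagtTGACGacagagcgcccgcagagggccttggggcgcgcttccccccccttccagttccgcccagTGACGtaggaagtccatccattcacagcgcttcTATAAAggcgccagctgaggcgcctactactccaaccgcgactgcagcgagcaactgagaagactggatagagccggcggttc
Fosb (chr7:19309996-19310295, minus strand): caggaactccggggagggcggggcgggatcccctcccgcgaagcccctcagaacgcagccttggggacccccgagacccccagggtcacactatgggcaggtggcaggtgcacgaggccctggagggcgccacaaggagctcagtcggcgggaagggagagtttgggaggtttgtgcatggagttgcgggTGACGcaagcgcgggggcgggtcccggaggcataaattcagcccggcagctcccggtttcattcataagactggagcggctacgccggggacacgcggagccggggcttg
Jun (chr4:95052173-95052472, minus strand): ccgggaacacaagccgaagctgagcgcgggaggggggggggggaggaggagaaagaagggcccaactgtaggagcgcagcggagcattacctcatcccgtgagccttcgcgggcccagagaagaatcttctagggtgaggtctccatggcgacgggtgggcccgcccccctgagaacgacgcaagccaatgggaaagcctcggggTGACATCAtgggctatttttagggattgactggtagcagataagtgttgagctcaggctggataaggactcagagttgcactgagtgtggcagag
Junb (chr8:84978699-84978998, minus strand): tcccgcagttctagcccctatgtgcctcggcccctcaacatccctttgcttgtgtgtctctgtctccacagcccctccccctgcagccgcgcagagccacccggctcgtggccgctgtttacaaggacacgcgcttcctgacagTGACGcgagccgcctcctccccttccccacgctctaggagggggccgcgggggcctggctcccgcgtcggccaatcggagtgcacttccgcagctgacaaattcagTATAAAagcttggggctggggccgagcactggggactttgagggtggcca

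Fos had 2 CRE cores, beginning at positions -129 and -66 from its start, and a TATA box at -33. Fosb had 1 CRE core, at -60, and Junb 1, at -106, with a TATA box at 1, since its RefSeq start lies 30 bases before the gene start in the files. Jun had no TGACG in this window, and the longer element TGACATCA began at -45. A CRE core also occurred in the promoter of Atf3, on the minus strand at -7, which makes 4 of 7 members with a promoter, against 20.8% of all 32851 promoters in the table. TGACNTCA was present in 8.83% of all promoters, TATAAA in 13.6% and TGACTCA in 5.20%. No TGACTCA lay in the window of any of the 7 members. The CArG box, which serum response factor binds, was not found in these 7 windows either, and occurred in 1.63% of all promoters. Egr1 was not among the members searched, so its promoter is not covered by these motif counts. The known serum response element of Fos lies upstream of the window shown. A CCAAT box was found in Atf3, Jun and Junb, 3 of the 7, and in 37.4% of all promoters. A MEF2 site, present in 0.557% of all promoters, was found in Jun at -33 and in Atf3 at -22. GCGNGGGCG, the sequence that EGR proteins bind, lay in Fosb at -50 and in Fosl2 at -79, and in 5.55% of all promoters. The TGACNTCA and TGACG motifs can overlap each other, and a match of letters describes the sequence without showing that a factor bound there.

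Total counts ranged from 19978583 to 25251187 per library, and the members together took between 768.5 and 1004 CPM (counts scaled to a common library total). On the principal components of all tested genes, 2'-FL replicate 2 lay farthest out on the first and control replicate 1 on the second. Of 8 epithelial markers, 5 averaged under 1 CPM, among them Cdh1, Epcam and Vil1, and Cdx2 was at 0 in every library, whereas Krt8 averaged 307 CPM, Krt18 271 CPM and Krt19 392 CPM. The 7 fibroblast markers, mostly Col1a1 and Col3a1, summed to between 7171 and 8153 CPM with 2'-FL and between 6762 and 6882 CPM in controls. Of these 7 markers, 4 had an estimate above 0 and 3, namely Pdgfra, Pdgfrb and Dcn, had one below 0. All 6 leukocyte markers averaged under 1 CPM, with Cd3e at 0. The 7 smooth muscle markers, mostly Acta2, summed to 233, 477 and 379 CPM in treated replicates 1 to 3 against 197, 211 and 146 CPM in control replicates 1 to 3 (exact two-sided permutation p = 0.1, the smallest that 3 against 3 allows). Fibroblast and smooth muscle sums lay higher with 2'-FL in every library while the members' groups overlapped, and their part in the members' values was not tested.

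After 6 h of 2'-FL none of the 10 members passed the test against the controls, and the differences lay within the spread between libraries. In 8 of them, all but Jun and Jund, the estimate lay below 0, with a median log2 fold change of -0.05 over the 10 members and of -0.01 over all genes tested. edgeR's quasi-likelihood test with Benjamini-Hochberg adjustment over all genes called 0 of 10 members, against 0% of the 14129 genes. At an unadjusted p under 0.05 stood 0 members and 1116 genes, or 7.90%. The DESeq2 Wald test called 37 genes, or 0.325% of the 11389 with an adjusted p, and 0 members, with Fosb left without an adjusted p. limma-voom called 0 genes. In no member did the libraries of one group all lie below or all above those of the other, which was the case, with 2'-FL lower, in 6.31% of all genes tested and, with 2'-FL higher, in 6.74%.

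**Figure D1:**
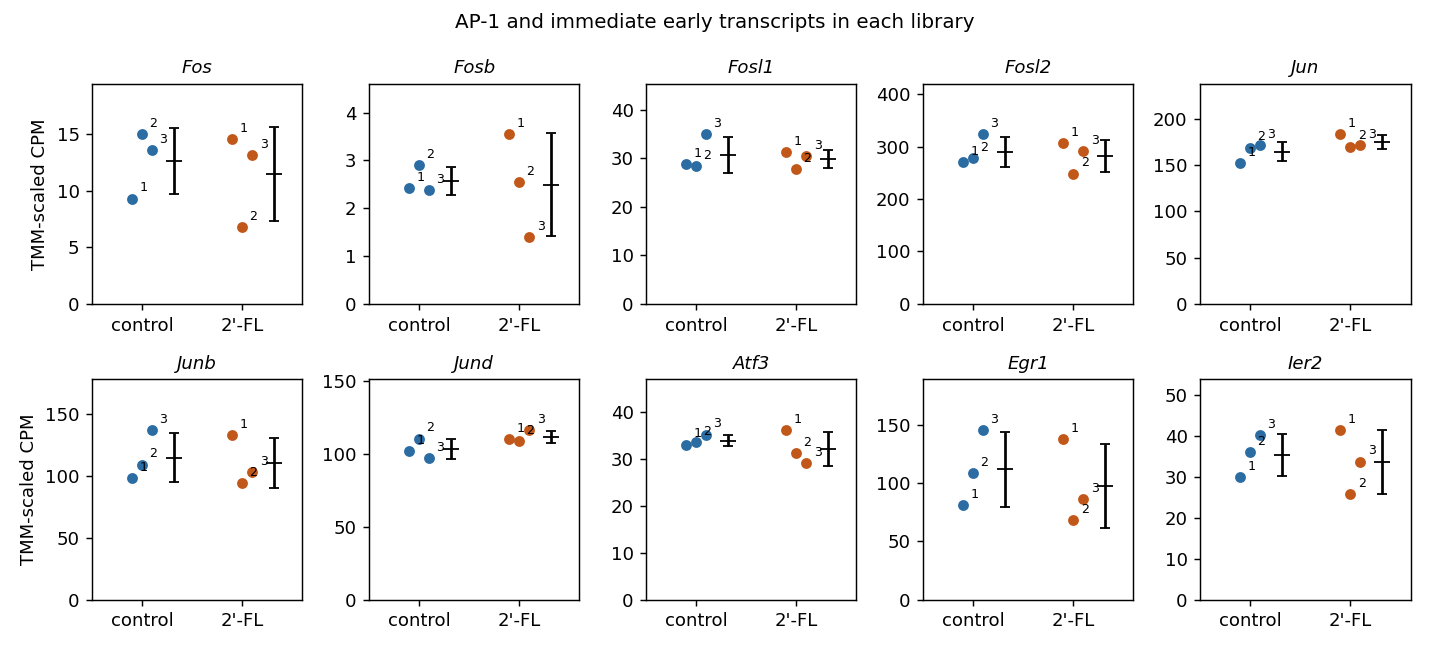
Level of each member in TMM-scaled CPM (y axis, from 0) in the 3 control (blue) and 3 2'-FL (orange) libraries, numbered by replicate; bars give the mean and SD. The groups overlap in all 10 panels, and the points of Fos, Egr1, Ier2 and Junb lie farther apart within a group than those of Jun and Jund.

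Fos (chr12:85473890-85477273 on GRCm38, as the files give it), the founding member of its family, was among the less abundant members. It stood at 14.5, 6.74 and 13.1 CPM in treated replicates 1 to 3 against 9.30, 15.0 and 13.6 CPM in control replicates 1 to 3. These CPM, and those below unless stated, are scaled with TMM factors, which adjust library sizes for composition. The lowest library of each group, 2'-FL replicate 2 and control replicate 1, lay apart from the other 2, and the groups overlapped. Its log2 fold change of 2'-FL over control was -0.14 ± 0.23 (SE; 95% interval -0.64 to 0.35), with an edgeR adjusted p of 0.918. A fall below 0.642 of the control level or a rise above 1.27 times it lies outside that interval. Without 2'-FL replicate 2 the estimate was 0.13 ± 0.17 (SE).

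Fosb (chr7:19302696-19310051), which like Fos carries a transactivation domain, was the rarest member, with raw counts of 83, 63 and 28 in the 2'-FL libraries and 48, 62 and 48 in the controls. On the CPM scale these were 3.54, 2.54 and 1.40 with 2'-FL and 2.43, 2.91 and 2.38 in controls. The control values lay inside the range of the 2'-FL values, which differed 2.53 times between the highest and lowest library. Its log2 fold change was -0.03 ± 0.32 (SE; 95% interval -0.71 to 0.65), the widest interval of the 10, so that at this depth neither a fall of the size of 0.610 times nor a rise of 1.56 times could be told from no change.

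Fosl1 (chr19:5447703-5455945) and Fosl2 (chr5:32135801-32157842), which encode the FOS proteins without a strong transactivation domain (FRA1 and FRA2), were steadier. Fosl1 stood at 31.3, 27.8 and 30.5 CPM in treated and 28.8, 28.4 and 34.9 CPM in control libraries, and control replicate 3 was the highest of the 6 libraries. Fosl2, the member with the highest CPM, stood at 307, 248 and 292 CPM in treated and 270, 278 and 323 CPM in control libraries. Both were lowest in 2'-FL replicate 2 and highest in control replicate 3. Their log2 fold changes were -0.04 ± 0.10 and -0.04 ± 0.09 (SE), and the 95% interval of Fosl2 reached from a fold of 0.855 to one of 1.11. The sign of the Fosl2 estimate turned without 2'-FL replicate 2, at 0.04, and without control replicate 3, at 0.05.

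Jun (chr4:95049034-95052222), the main partner of FOS proteins, had one of the smallest spreads among the members. It stood at 183, 170 and 172 CPM in treated and 153, 169 and 172 CPM in control libraries, with control replicate 1 lowest. The log2 fold change was 0.09 ± 0.07 (SE; 95% interval -0.05 to 0.23), and the edgeR adjusted p was 0.786. Jund (chr8:70698949-70700616), the steady member of the family, stood at 110, 109 and 116 CPM in treated and 102, 110 and 97.2 CPM in control libraries. Of the 3 2'-FL libraries, 2 lay just below the highest control. Its estimate of 0.11 ± 0.07 (SE; 95% interval -0.03 to 0.26) had the smallest p of the 10 members and ranked 2254 among the 14129 genes by p (edgeR adjusted p = 0.721). The 95% interval of Jun reached from a fold of 0.963 to one of 1.18, and that of Jund started at 0.979.

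Junb (chr8:84974484-84978718), which can oppose Jun at some promoters, varied more than its relatives. It stood at 133, 94.1 and 103 CPM in treated and 98.1, 109 and 137 CPM in control libraries. One library of each group, 2'-FL replicate 1 and control replicate 3, lay well above the rest. The log2 fold change was -0.06 ± 0.12 (SE; 95% interval -0.32 to 0.21). The annotated span of Junb shares 351 bases with Prdx2 on the opposite strand, which held 21828 counts over the 6 libraries. With no strand setting stated for the counting, reads from those shared bases cannot be assigned to either gene. Whether exons of both genes lie there was not examined. Jun shares 689 bases with the antisense gene Junos, which held 90 counts in all.

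Atf3 (chr1:191170296-191218039), a stress-inducible factor that pairs with JUN proteins, stood at 36.1, 31.2 and 29.1 CPM in treated and 33.0, 33.6 and 35.2 CPM in control libraries. All controls fell between the highest and the second 2'-FL library, and the log2 fold change was -0.08 ± 0.09 (SE; 95% interval -0.27 to 0.12). Without 2'-FL replicate 1 it was -0.17 and did not pass.

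Egr1 (chr18:34859823-34864984), a zinc finger factor induced by growth factors through serum response factor and ETS-domain partners, had the largest estimate. It stood at 137, 68.1 and 86.0 CPM in treated and 80.8, 109 and 145 CPM in control libraries. In each group the highest library, 2'-FL replicate 1 or control replicate 3, was about as high as that of the other group. The log2 fold change was -0.20 ± 0.21 (SE; 95% interval -0.65 to 0.25), with an edgeR adjusted p of 0.859. Leaving out 2'-FL replicate 1 moved it to -0.54 ± 0.17 (SE), at an unadjusted p of 0.00519 and an edgeR adjusted p of 0.276, and leaving out 2'-FL replicate 2 or control replicate 3 moved it to 0.0033 or 0.041. The smallest adjusted p over its alternatives was that 0.276.

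Ier2 (chr8:84661331-84662852), a short immediate early gene whose product is a nuclear protein, stood at 41.3, 25.8 and 33.7 CPM in treated and 29.9, 35.9 and 40.1 CPM in control libraries. The 2'-FL values spanned the controls on both sides. Its log2 fold change was -0.07 ± 0.14 (SE; 95% interval -0.38 to 0.23) and turned to 0.09 without 2'-FL replicate 2 and to 0.03 without control replicate 3.

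**Figure D2:**
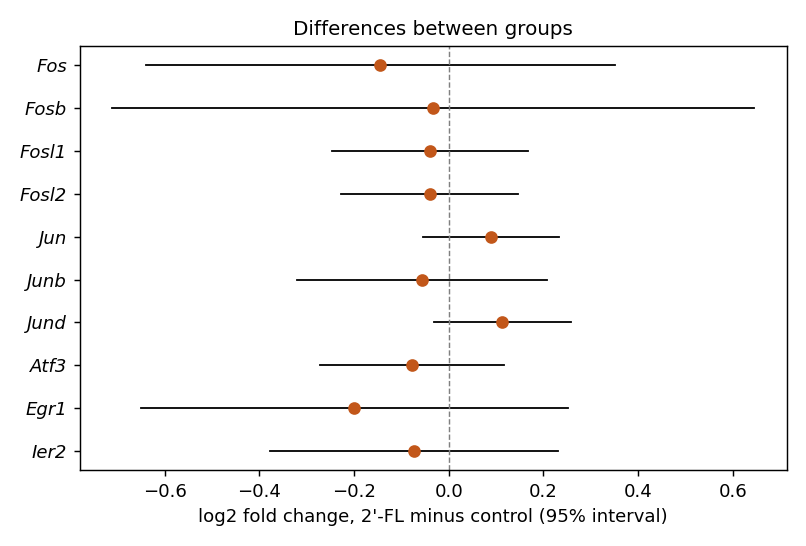
Log2 fold change of 2'-FL minus control for each member (x axis) with its 95% interval from the edgeR fit (line); the dashed line marks no difference. All 10 intervals include 0, and those of Fosb, Fos and Egr1 are the widest.

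The spread between replicate libraries differed widely among members. The within-group SD of log2 CPM, pooled over both groups, was 0.49 for Fos, 0.47 for Egr1, 0.47 for Fosb, 0.28 for Ier2 and 0.25 for Junb, against a median of 0.13 over all genes tested. Fosl2 and Fosl1, at 0.15 and 0.13, lay a little above that median, and Atf3, at 0.12, Jun, at 0.077, and Jund, at 0.074, below it. Among genes with a mean of 5 to 500 CPM, which include all members but Fosb, the median was 0.103. Atf3, at 0.117, lay above that one. Fos and Egr1 had a larger spread than 91.3% and 90.5% of the tested genes, and Jund than 21.3%. Low counts widen the spread, so the biological coefficient of variation that edgeR fits beyond counting error was set beside its trend at the same abundance. It was 0.180 for Egr1, where the trend was 0.0666, 0.192 against 0.105 for Fos, 0.120 against 0.0766 for Ier2 and 0.108 against 0.0666 for Junb. For Fosb, whose counts were few, it was 0.233 against 0.203, and for Jun and Jund it lay below the trend, at 0.0632 against 0.0674 and 0.0618 against 0.0666. Fosl2 had 0.0800 against 0.0691, Fosl1 0.0802 against 0.0782 and Atf3 0.0759 against 0.0771. These are descriptions of 6 libraries and were not tested.

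**Figure D3:**
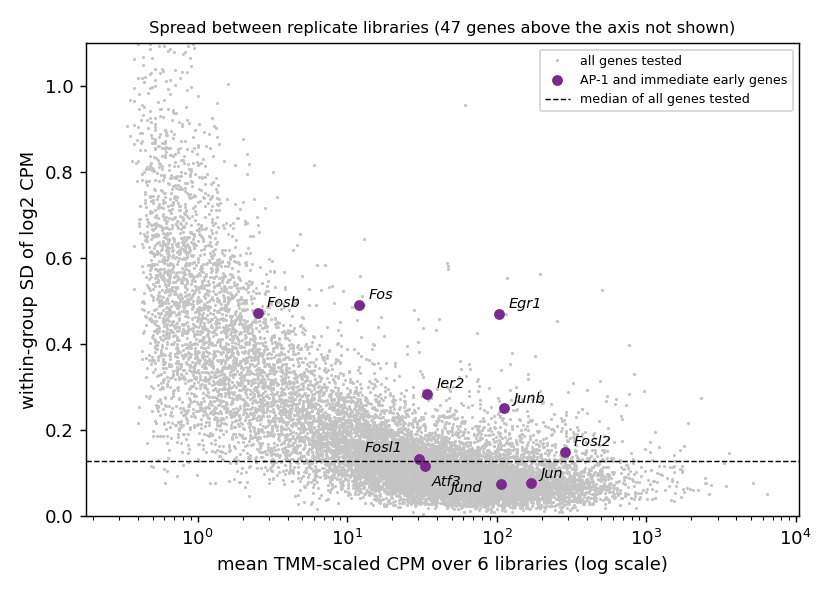
Within-group SD of log2 CPM (y axis) against the mean TMM-scaled CPM over 6 libraries (x axis, log scale) for all genes tested (grey) and the members (purple); the dashed line is the median of all genes tested, and 47 genes lie above the axis. Egr1, Fos, Ier2 and Junb sit above most genes of like abundance, and Jun and Jund inside the bulk.

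Egr1, Ier2 and Junb were high and low in the same libraries. In 2'-FL replicate 1, 9 of the 10 members were at the highest level of their group, all but Jund, and in control replicate 3 it was 7. In 2'-FL replicate 2, 8 members were lowest of their group, and in control replicate 1 it was 7. The same counts were not made over all genes tested, so they do not show a pattern particular to the members. Egr1 lay above its mean over the 6 libraries by 0.45 in 2'-FL replicate 1 and by 0.53 in control replicate 3 on the log2 scale, and stood at -0.56 in 2'-FL replicate 2 and -0.31 in control replicate 1. Ier2 followed with 0.28, 0.24, -0.40 and -0.19 in those libraries, and Junb with 0.26, 0.30, -0.24 and -0.18. Fos differed in that control replicate 2, at 0.36, was its highest library. Fosb had another order, with its lowest value, -0.77, in 2'-FL replicate 3, and Jund was lowest in control replicate 3, at -0.14. Both libraries in which most members were lowest are those that lay farthest out on the principal components, and whether the 2 observations are related was not tested. Without both, which is an alternative chosen after the data were seen, 0 members were called and the estimates of Fos, Egr1 and Ier2 were -0.043, -0.18 and -0.016.

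**Figure D4:**
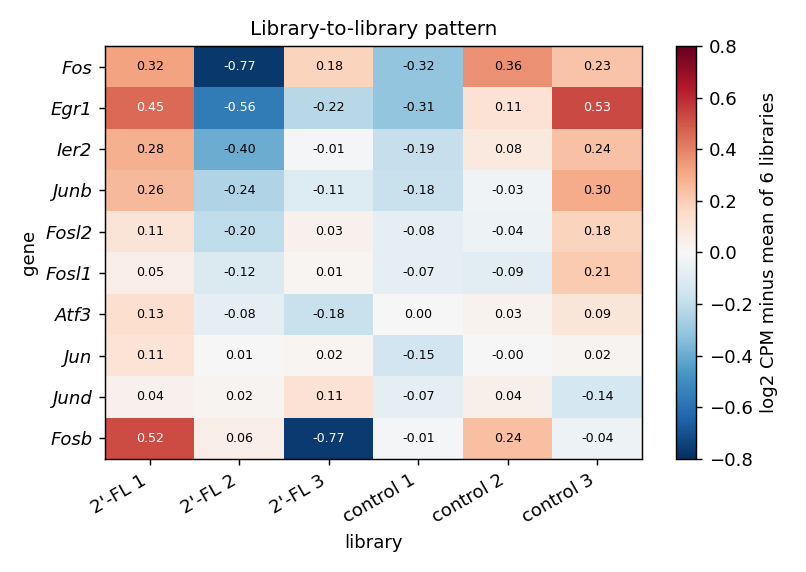
Log2 CPM of each member (rows) in each library (columns) minus its mean over the 6 libraries, printed in the cells and shown in colour (red higher, blue lower). Egr1, Ier2, Junb and Fosl2 are high in 2'-FL replicate 1 and control replicate 3 and low in 2'-FL replicate 2 and control replicate 1, whichever the treatment.

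The 7 heat shock genes, which also respond to handling of cells, were read beside them. Their summed level was 2540, 2639 and 2489 CPM in treated replicates 1 to 3 against 2554, 2582 and 2412 CPM in the controls (exact two-sided permutation p = 0.7). This sum is in CPM without TMM factors, and most of it was Hspa8, with a mean of 2039 CPM on that scale. The sum was lowest in control replicate 3, where Egr1 was highest. Mitochondrial transcripts took between 0.366% and 0.618% of counts with 2'-FL, lowest in replicate 2, and between 0.454% and 0.523% in controls. Whether these measures have a part in the members' spread was not tested.

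Per kilobase of the gene length given in the files, JUN transcripts outweighed FOS transcripts. Jund averaged 64.3 ± 4.02 CPM per kilobase, Jun 53.2 ± 3.08 and Junb 48.8 ± 7.89, followed by Fosl2 at 29.6 ± 2.77, Egr1 at 23.3 ± 7.04, Ier2 at 22.6 ± 3.93, Fosl1 at 17.7 ± 1.54, Atf3 at 15.3 ± 1.20, Fos at 5.12 ± 1.39 and Fosb at 0.406 ± 0.113 (SD over all libraries, n = 6). In this order Jun exceeded Junb in 4 of 6 libraries and Egr1 exceeded Ier2 in 3 of 6, so these neighbours could not be ranked. For all other neighbours the order held in 6 of 6 libraries. The summed JUN level was between 2.86 and 3.53 times the summed FOS level in the 6 libraries. Within the FOS family Fosl2 made up 56.2 ± 0.463% with 2'-FL and 55.8 ± 0.930% in controls, Fosl1 33.8 ± 1.96% and 33.4 ± 1.34%, Fos 9.20 ± 2.49% and 9.95 ± 2.09%, and Fosb 0.772 ± 0.312% and 0.773 ± 0.130% (SD, n = 3 each). Among JUN transcripts Jund made up 39.5 ± 2.77% and 38.0 ± 3.51%, Jun 32.4 ± 0.925% and 31.6 ± 0.214%, and Junb 28.1 ± 3.37% and 30.4 ± 3.66%. Each of these group differences was smaller than the SD of at least 1 of the groups. The lengths count all annotated exons, so a gene with long unused exons is understated.

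**Figure D5:**
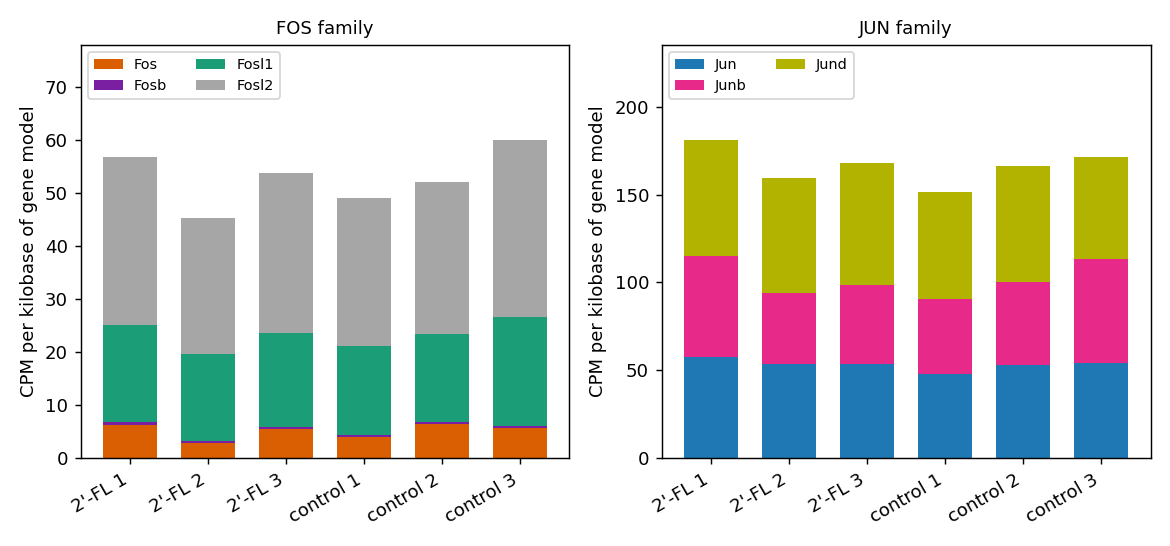
Level of FOS (left) and JUN (right) transcripts in CPM per kilobase of gene length (y axis, from 0) in each library, stacked by gene. Fosl2 and Fosl1 fill most of the FOS bars, the 3 JUN genes share theirs, and Fosl2 makes up 55.0% to 56.9% of the FOS level in every library.

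In the basic set of GENCODE transcripts, those of Jun, Junb, Jund and Ier2 have a single exon. Transcripts outside that set were not counted. Of these genes, Junb and Ier2 had a within-group SD above the median of all genes and Jun and Jund one below it. AU-rich motifs of the 3' UTR, read as ATTTA in the DNA sequence, mark many transcripts for rapid decay. Fos held 4 in 815 bases and Junb 2 in 485. These densities lay above those of 93.8% and 90.4% of tested genes with a UTR of at least 100 bases. Jun held 4 in 1233 bases (above 82.9%), Egr1 2 in 1216 (56.4%) and Ier2 0 in 755 (0%). For Atf3, Jund, Fosl2, Fosl1 and Fosb the shares were 73.5%, 61.4%, 58.2%, 54.4% and 29.3%. The longest annotated 3' UTR of each gene was used, and which UTR these cells use was not measured.

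Other immediate early genes were read from a list of 32, of which 29 were tested and 0 passed over all genes by edgeR, with 12 higher and 17 lower and a median log2 fold change of -0.04. At an unadjusted p under 0.05 stood 6 of the 29, with 3 higher and 3 lower, where the share over all genes tested was 7.90%. Those with the smallest p were Cyr61, a matrix protein gene induced by serum and YAP, at 504, 460 and 463 CPM in treated and 330, 424 and 420 CPM in control libraries (log2 fold change 0.28 ± 0.09, SE), the prostaglandin synthase gene Ptgs2 at -0.38 ± 0.13 (SE) and the stress gene Gadd45b at 0.21 ± 0.08 (SE). Their edgeR adjusted p-values were 0.469, 0.503 and 0.503. The kinase gene Plk2, the most abundant of the list, had 0.07 ± 0.06 (SE). The median within-group SD of this list was 0.12, near the 0.13 of all genes tested, where the 10 members had 0.20. Egr4 was listed at 0 in all libraries.

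Further partners and regulators of AP-1 also held 0 calls over all genes by edgeR. Among 11 tested leucine-zipper partners, 3 were higher and 8 lower, with the stress factor Ddit3 at -0.18 ± 0.07, Atf4 of the amino acid response at 0.23 ± 0.10, Mafk at 0.17 ± 0.08 and Atf2 at -0.12 ± 0.07 (log2 fold change ± SE). Among 23 upstream kinases and factors, 14 were higher and 9 lower. Those with the smallest p were the coactivator gene Ep300 at -0.23 ± 0.07 and Srf, the serum response factor that binds CArG boxes of Fos and Egr1, at 0.28 ± 0.09 (SE; edgeR adjusted p = 0.455 and 0.475). Srf stood at 73.2, 78.3 and 69.6 CPM in treated and 56.8, 54.7 and 70.2 CPM in control libraries, overlapping because of control replicate 3. The kinase genes Map2k4 and Map2k1 had 0.10 ± 0.06 and -0.0027 ± 0.07 (SE). Of 8 factors that act on AU-rich transcripts, 2 were higher and 6 lower, with Zfp36l1 at -0.16 ± 0.08, Tia1 at -0.15 ± 0.08 and Elavl1 at 0.11 ± 0.06 (SE), while Khsrp and Hnrnpd, the most abundant, had 0.03 ± 0.06 and -0.0021 ± 0.06 (SE).

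Genes known as targets of AP-1 went both ways, with 10 of 19 tested members higher and 9 lower, a median log2 fold change of 0.0011 and 0 calls by edgeR. At an unadjusted p under 0.05 stood 5 of the 19, all lower, where the share over all genes tested in both directions was 7.90%, and none passed the adjustment. The chromatin protein gene Hmga1 stood at 29.7, 24.3 and 25.5 CPM in treated and 36.2, 30.7 and 38.7 CPM in control libraries, without overlap (log2 fold change -0.41 ± 0.10, SE, edgeR adjusted p = 0.302). Osteopontin, Spp1, had -0.32 ± 0.08 and the chemokine gene Ccl2 -0.32 ± 0.09 (SE; edgeR adjusted p = 0.314 and 0.372). The most abundant of the list, Vim, had 0.15 ± 0.08 (SE). Of 7 heat shock genes, 5 were higher and 2 lower, with Bag3 at 0.14 ± 0.07, Hspa1b at 0.14 ± 0.11, Hspa1a at -0.42 ± 0.51, Hsph1 at 0.04 ± 0.11 and Hspa8 at 0.03 ± 0.07 (SE). Hspa1a and Hspa1b are near-identical copies whose reads may have been split by the counting.

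Genes outside the list whose log2 CPM followed Fos most closely over the 6 libraries were Bola1, Islr, Chrac1, Chpt1 and Nek6, with Pearson r from 0.989 to 0.997, out of 10238 genes with a mean of at least 5 CPM. For Egr1 they were Arid5a, Brf1, Unkl, Rnf130 and Magi1 (r from 0.988 to 0.996), and for Jun they were Ubl3, Csrnp2, Shb, Fam120aos and Ctgf (r from 0.977 to 0.993). The 10238 genes searched leave out the members and genes with provisional or pseudogene names, such as Gm, Rik or -ps names. Among the members themselves, Egr1 was closest to Junb (r = 0.977), Ier2 (r = 0.963) and Fosl2 (r = 0.901), and Fos to Ier2 (r = 0.921). With 6 points that share depth and scaling, r of at least 0.9 was reached with Fos by 231 genes, with Egr1 by 215 and with Jun by 74. These values describe likeness over the libraries at hand and carry no test.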

How the data were processed

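Total RNA of YAMC cells, in 6 samples, was extracted with a Qiagen RNeasy kit and made into libraries with a NEBNext Ultra II RNA kit, per the labels' protocols. Tools listed in the submitters' processing notes are Bowtie2 (as 2.7.3a), FastQC 0.11.9 and bcl2fastq, with GRCh38 as the build. The files hold mouse genes, and 98.3% of those in the GENCODE mouse annotation of GRCm38 have the same position there. Neither the counting program nor its strand setting is given in the sources used here. The authors deposited whole read counts for each gene, without normalization.

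The counts were fitted with edgeR 4.0.16 (R 4.3.3): filterByExpr with a minimum count of 10, TMM scaling and the quasi-likelihood F-test over 14129 genes, 2'-FL minus control, adjusted by Benjamini-Hochberg at a threshold of 0.05. Standard errors were derived from each log2 fold change and F value, and 95% intervals from the total degrees of freedom. Log2 CPM used a prior count of 2. Libraries were compared in pairs by chi-square per gene, at least 5.26, so each counts once. The test was also run on counts simulated with the dispersions fitted to these libraries. The outcome of that run is not reported here, so no size of detectable change follows from it. Alternatives were other scalings and filters, DESeq2 1.42.0, limma-voom (limma 3.58.1), robust estimation, a replicate block and each library left out. The members and gene lists were chosen with earlier results of these data known. From each further list, the 3 genes with the smallest p and the 2 most abundant are named, apart from 2 genes that are not reported here, and for Fos, Jun and Egr1 the 5 most similar genes. For Ddit3, with 2 listed genes of that name, the gene listed first was used.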

Additional observations from a re-analysis of the deposited data

How the results depend on the processing

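The count of called members was 0 under all 17 settings run, that is the reported one, other scalings, filters and tests, the replicate block, each library left out and both outlying libraries left out. The count of all genes called was 0 as reported, 158 without a filter on low counts, where the prior degrees of freedom became infinite, 37 by the DESeq2 Wald test, 5 with robust estimation (Ly6a, Ifi203, Mndal, Ifit3b and Slfn2), 1 with the replicate block (Ccl5) and from 0 to 28 with 1 library left out, 21 without 2'-FL replicate 1 and 28 without control replicate 2. Among the 158 of 26207 genes called without a filter were 2 other immediate early genes (Cyr61 and Ptgs2), 4 AP-1 targets (Hmga1, Spp1, Ccl2 and Mmp13), 3 smooth muscle markers (Acta2, Myl9 and Cnn1) and the fibroblast marker Thy1. With 1 library left out, log2 fold changes ranged from -0.36 to 0.13 for Fos, -0.37 to 0.24 for Fosb, -0.093 to 0.069 for Fosl1, -0.10 to 0.049 for Fosl2, -0.22 to 0.095 for Junb, -0.54 to 0.041 for Egr1 and -0.25 to 0.088 for Ier2, so that their signs rest on single libraries, whereas Jun (0.040 to 0.13), Jund (0.078 to 0.16) and Atf3 (-0.17 to -0.0096) kept theirs. Under the other 10 alternatives every member kept its sign. The labels state no pairing of the libraries. Deviations of same-numbered libraries correlated at -0.12, -0.068 and -0.051, which cannot settle whether they were paired. Under the replicate block the Egr1 estimate was -0.23. Fosb had the fewest counts of the members, and intervals cover only the spread of these libraries.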
